A study of Homo sapiens with 58 samples.

Results

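The 38 genes described here encode the enzymes and carriers of glycolysis and pyruvate metabolism. They were taken by gene symbol from the 19084 genes of the deposited table, and all 38 were found, the muscle-type pyruvate kinase under its older symbol PKM2. They cover glucose uptake (SLC2A1, SLC2A3), the 10 reactions from hexokinase to pyruvate kinase, the PFKFB enzymes that set the phosphofructokinase activator fructose 2,6-bisphosphate, lactate dehydrogenase and lactate transport, the pyruvate dehydrogenase complex, and 4 enzymes of the sugar phosphate branches.

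Glycolysis splits glucose into pyruvate and yields ATP and NADH. Pyruvate is then reduced to lactate by lactate dehydrogenase, or enters mitochondria and is oxidised to acetyl-CoA by pyruvate dehydrogenase. Pluripotent stem cells are known for high glycolytic flux, and in the presomitic mesoderm of chick and mouse embryos glycolytic activity is known to be graded, highest in the posterior tail bud and lower towards the forming somites. Most steps have several isoenzymes encoded by different genes, which differ in kinetics and in the tissues that use them.

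The study took wild-type cells of H1, an established human embryonic stem cell line, through mesendoderm and presomitic mesoderm (PSM) to somite cells, and sequenced RNA from bulk cultures. The daily series has 12 libraries, 3 at each of 4 days. Day0 cells were undifferentiated and kept in E8 medium. Day1 cells, labelled mesendoderm, had E8 with activin A at 100 ng/mL and CHIR99021, an activator of WNT signalling, at 3 µM. Day2 cells, labelled presomitic mesoderm, then had E6 medium (E8 without FGF2 and TGFβ1) with CHIR99021 at 3 µM, FGF2 at 100 ng/mL, the BMP inhibitor NOGGIN at 100 ng/mL and the TGFβ receptor inhibitor A83-01 at 2 µM. For the somite stage of Day3, E6 held NOGGIN at 100 ng/mL, A83-01 at 2 µM, the MEK inhibitor PD0325901 at 1 µM and the WNT inhibitor IWR1 at 2.5 µM. A separate PSM time course has 46 libraries, 2 at each of 23 times from 30 to 690 min in steps of 30 min; the labels give neither its medium nor its zero point. All libraries come from 1 line, and the labels do not say whether replicates were separate cultures. Each p-value therefore rests on library-to-library spread, part or all of which may be technical.

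Total gene counts ranged from 3.16 M to 7.81 M per daily library and from 2.53 M to 8.96 M per course library, and Day2 libraries were the shallowest (3.16 M to 3.60 M). Levels are given as CPM, counts scaled to a common library total, and a count of 3 corresponded to 0.384 to 0.949 CPM over the days and 0.335 to 1.18 CPM over the course. The labelled stages were checked on their markers: the summed CPM of 6 stem cell markers was 4159 to 4484 at Day0 and 843 to 941 at Day3, that of 5 mesendoderm markers was 1007 to 1097 at Day1, that of 6 PSM markers was 337 to 646 at Day2 and 1278 to 1465 at 30 to 90 min, and that of 6 somite markers was 833 to 1099 at Day3. Markers of other cell types also moved: 7 neuron markers summed to 885 to 1509 CPM at Day2 against 436 to 652 at Day1. Endoderm markers summed to at most 28.5 CPM at Day1 and 7.19 CPM at Day3, and endothelial and blood markers fell from 87.4 to 115 CPM at Day0 to 4.33 to 8.99 CPM at Day3. Stage markers also moved within the PSM time course. Summed somite markers were 357 to 453 CPM at 30 to 90 min and 917 to 1187 CPM at 630 to 690 min. Mesendoderm markers were 90.9 to 161 CPM and 7.32 to 15.0 CPM in these windows, and PSM markers were 920 to 1233 CPM in the last. Changes of members along the course thus came with a change of stage markers. In bulk RNA, fewer cells of a type and less RNA per cell cannot be told apart.

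An index of 4 weakly expressed genes with abundant near-identical relatives elsewhere in the genome (RPL10L, HSPA1L, PPIAL4G and TUBA3D; mean centred log2 CPM) also differed between groups, and is called the copy index here. Its mean was -1.08 at Day0, 0.05 at Day1, 1.45 at Day2 and -0.42 at Day3, with a range over the 3 Day3 libraries from -2.29 to 0.70. In the course it was above 0 from 90 to 270 min, with a peak of 1.76 at 150 min, and stood at -0.72 at 300 min. Several members have pseudogenes or near-identical paralogues (SLC2A3, PGK1, PGAM1, ENO1, PKM2, LDHA and GAPDH among them), so their levels are uncertain where counting could split reads between copies. Whether this touches ENO3 was not tested. Correlations with the index over the 46 course libraries took each library against the mean of its time. They were highest for PGK1 (0.88), ENO3 (0.83), PDHA1 (0.63), DLD (0.58), PKM2 (0.55) and PKLR (0.47), and lowest for PFKFB2 (-0.52). Libraries of a time differ in depth, and the labels do not say whether they shared handling, so these are descriptions. Over the 12 daily libraries, each taken against the mean of its day, the correlation was highest for PKLR (0.94), ENO3 (0.93), PGK1 (0.82) and SLC2A1 (0.79). It was lowest for PGD (-0.78), LDHB (-0.78), PGAM1 (-0.76) and ENO1 (-0.72). Members thus went both ways with the index within days, again as a description. The part of the index in the results below was not tested beyond the fit that holds it as a covariate. The index itself went with the day: Day2 libraries stood at 1.07 to 1.66, and no library of another day was above 0.70. Holding it can therefore also take away a difference between days, and the fit cannot tell index and day apart. The fit with the index held called fewer genes of any kind between neighbouring days. It called 4.93%, 7.68% and 4.95% of all genes in the 3 steps, against 7.29%, 20.1% and 22.6% without it. A member's call between days lost there is therefore given with its log2 change. Genes other than members are given from the fit without the index only.

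Between successive days, 6, 12 and 13 of the 37 testable members changed (edgeR's quasi-likelihood test, adjusted p under 0.05 over 12765 genes); LDHC did not pass the filter on low counts. From Day0 to Day1, 3 members rose and 3 fell, against 3.69% of all tested genes called higher and 3.6% called lower. From Day1 to Day2, 5 rose and 7 fell, against 8.67% and 11.5%. From Day2 to Day3, 4 rose and 9 fell, against 11.6% and 11%. Over the whole protocol, from Day0 to Day3, 3 rose (PFKM, ENO3, PGM1) and 11 fell, against 9.97% and 11.5% of all genes. The median log2 change of the 37 members was -0.05, -0.15, -0.18 and -0.28 in these comparisons, beside -0.01, -0.04, 0.08 and 0.04 over all genes tested.

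Any difference among the 4 days was called for 27 members, against 43.6% of all genes. Of the members, 6 were called in no comparison of the days or the course: PFKL, PFKFB2, TPI1, PGAM2, LDHC and PDHA1. The Day0 to Day1 count is the least firm: it was 3 without Day0 replicate 2, 2 without Day0 replicate 3, 2 without Day1 replicate 2 and 3 without Day1 replicate 3. On log2(TPM + 1) values, where the median of all genes shifted by -0.12, -0.23 and 0.33 between successive days, 4 members were higher and 11 lower from Day1 to Day2 and 10 higher and 6 lower from Day2 to Day3, while all genes split 2679 higher to 724 lower in the last step, beside 1483 to 1407 in the count fit. From Day0 to Day3 the TPM split was 1 higher and 11 lower. When the copy index was held as a covariate, the splits were 4 higher and 0 lower, 2 and 4, 1 and 5, and, from Day0 to Day3, 1 and 12; all genes then split 352 higher to 277 lower, 406 to 574, 336 to 296 and 1188 to 1478.

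**Figure D1:**
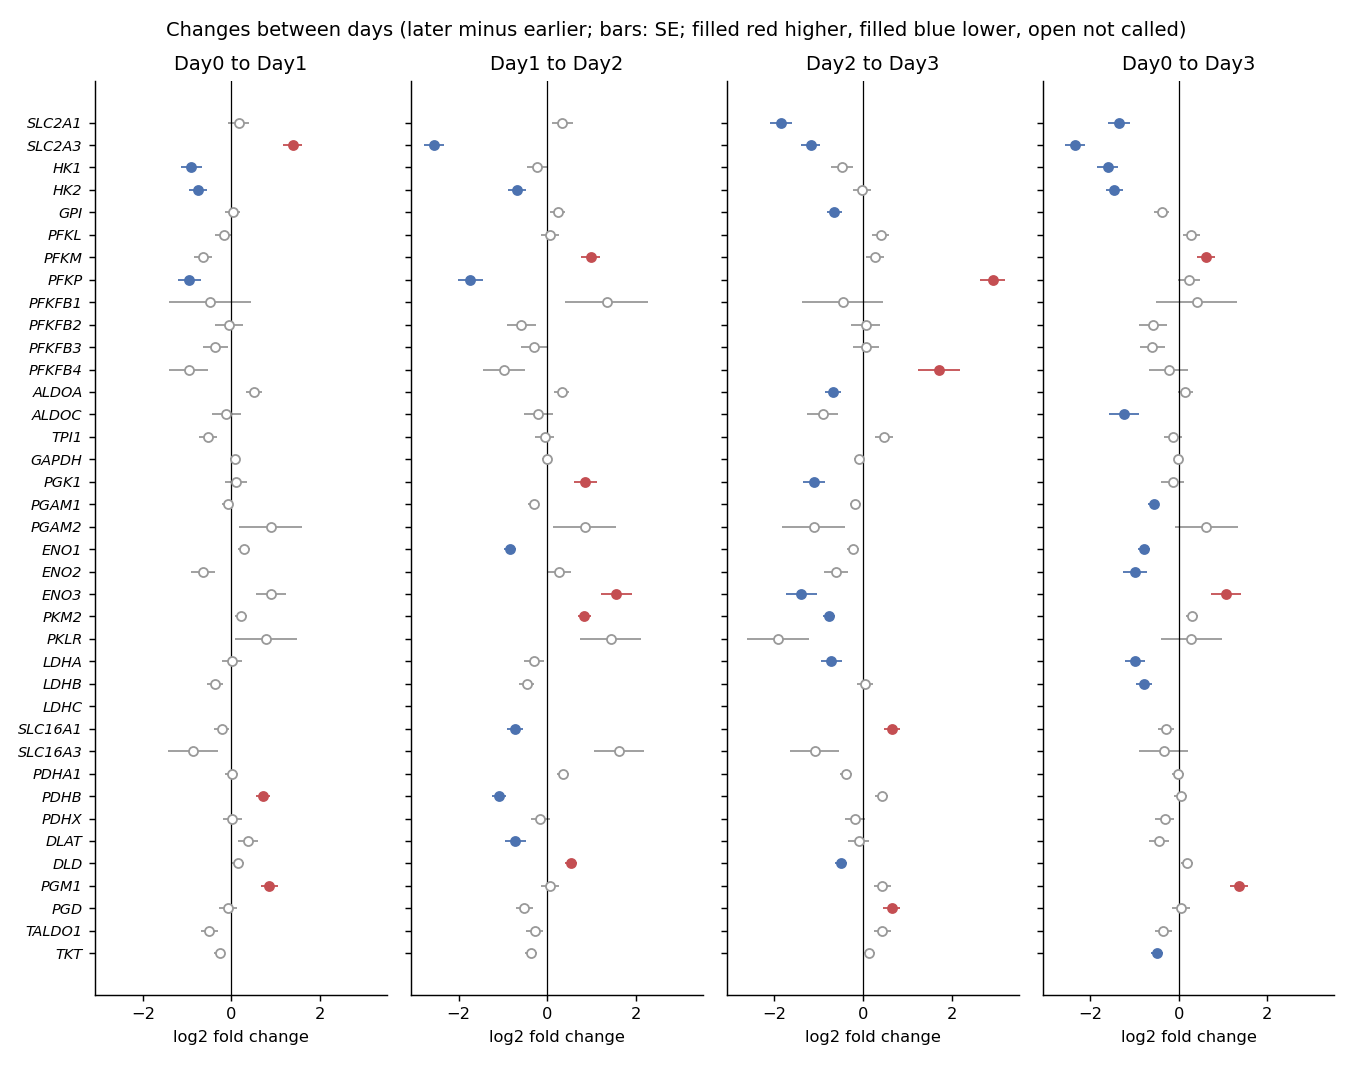
Log2 fold changes (x axis) of the members (y axis) between days, later minus earlier, with standard errors as bars from the edgeR fit of 12 libraries; filled red points were called higher, filled blue points lower, and open points were not called. The rise of PFKP from Day2 to Day3 (2.93) and the fall of SLC2A3 from Day1 to Day2 (-2.56) are the widest shifts.

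SLC2A3 encodes GLUT3, a high-affinity glucose transporter. Its level was 1787, 1556 and 1733 CPM in the Day0 libraries, 4462, 4724 and 4093 CPM at Day1, 493, 734 and 1028 CPM at Day2, and 429.6, 279.8 and 287 CPM at Day3. The Day1 libraries stood above all others and no successive days overlapped. SLC2A3 rose 2.62-fold from Day0 to Day1 (log2 change 1.39, SE 0.21, edgeR adjusted p = 0.000507), then fell 5.89-fold to Day2 (log2 -2.56, SE 0.22, adjusted p = 2.56e-06) and 2.27-fold more to Day3 (log2 -1.18, SE 0.21, adjusted p = 0.00131). Its log2 changes with the copy index held were 1.37, -2.58 and -1.16. SLC2A14, a near-identical neighbour of SLC2A3, had 14.9 ± 4.98 CPM at Day0, 23.3 ± 4.42 at Day1, 73.0 ± 1.41 at Day2 and 19.1 ± 14.6 at Day3 (SD, n = 3), so its order over the days differed from that of SLC2A3.

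SLC2A1 encodes GLUT1, the widespread basal glucose transporter. It measured 134, 144 and 181 CPM at Day0, 134, 174 and 204 CPM at Day1, 193, 239 and 219 CPM at Day2, and 61.1, 84.1 and 36.4 CPM at Day3. The first 3 days overlapped with their neighbours, and every Day3 library was below every earlier one. SLC2A1 fell 3.60-fold from Day2 to Day3 (log2 -1.85, SE 0.25, edgeR adjusted p = 0.000147; -1.28 and 0.00708 with the copy index held, whose Day3 libraries also vary most). Per length, SLC2A3 remained the main transporter on every day: SLC2A1 made up 8.85% ± 1.32 of the summed TPM of the pair at Day0, 4% ± 0.991 at Day1, 24.7% ± 5.56 at Day2 and 16.5% ± 6.82 at Day3 (SD, n = 3). The pair together went from 1142 ± 31.2 TPM to 2616 ± 117, 497 ± 163 and 238 ± 39.7.

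Within the course, SLC2A1 was the member with the steepest fall. Its lowest, median and highest levels over 6 libraries were 211, 278 and 318 CPM at 30 to 90 min, 52.7, 61.8 and 64.9 CPM at 330 to 390 min, and 33.8, 46.3 and 56.8 CPM at 630 to 690 min. The early window did not overlap with the later ones. The mean of the libraries at each time declined from 302 CPM at 30 min to 180 at 150 min, 79.5 at 300 min and 40.1 at 690 min, so most of the fall lay in the first 330 min. The level was 4.37-fold lower in the middle window than in the first (log2 -2.13, SE 0.14, edgeR adjusted p = 3.83e-17) and 1.37-fold lower again in the last (log2 -0.46, SE 0.14, adjusted p = 0.0277). The second step is not firm: leaving out any of 8 libraries (330 min replicates 1 and 2, 360 min replicate 1, 390 min replicate 1, 630 min replicates 1 and 2, 660 min replicate 1, 690 min replicate 1) took its adjusted p to 0.0508 to 0.171, and on log2(TPM + 1) values it was 0.101.

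SLC2A3 fell less in the course. Its windows held 792, 936 and 1134 CPM (lowest, median, highest), then 514, 611 and 663, then 568, 645 and 687. The early window stood above the later ones, which overlapped. It was 1.60-fold lower in the middle window than in the first (log2 -0.67, SE 0.08, edgeR adjusted p = 8.37e-09), and the share of SLC2A1 in the pair's TPM went from 22.9% ± 1.33 to 9.92% ± 1.51 and 7.03% ± 1.62 (SD, n = 6).

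SLC16A3 encodes MCT4, the low-affinity lactate exporter of strongly glycolytic cells, and SLC16A1 encodes MCT1, the common high-affinity lactate and pyruvate carrier. SLC16A3 was called in no comparison of the days: it measured 67.3, 11.7 and 29.3 CPM at Day0, 17.7, 12.9 and 29.0 at Day1, 106, 34.3 and 43.8 at Day2, and 45.0, 28.4 and 13.2 at Day3. Libraries of a day differed widely, and replicate 1 was the highest on Day0, Day2 and Day3. In the course its windows held 65.1, 81.2 and 121 CPM (lowest, median, highest), then 27.3, 36.6 and 51.4, then 10.3, 19.0 and 22.1, with no overlap between windows. SLC16A3 fell 2.25-fold from the first to the middle window (log2 -1.17, SE 0.16, edgeR adjusted p = 1.6e-07) and 2.07-fold to the last (log2 -1.05, SE 0.17, adjusted p = 1.34e-05).

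SLC16A1 moved the other way in the course. Its windows held 361, 419 and 441 CPM, then 404, 459 and 534, then 707, 751 and 783. The last window stood above both earlier ones, and the rise from the middle to the last was 1.62-fold (log2 0.69, SE 0.09, edgeR adjusted p = 2.29e-07). Per length, SLC16A3 gave 28.2% of the summed TPM of the pair in the first window, 13.4% in the second and 4.40% in the third. Over the days SLC16A1 had 662 ± 148, 567 ± 36.6, 344 ± 36.5 and 543 ± 108 CPM (SD, n = 3). It fell from Day1 to Day2 (log2 -0.72, adjusted p = 0.0108; 0.0534 without Day2 replicate 2) and rose to Day3 (log2 0.66, adjusted p = 0.0156; 0.0749 at most without Day2 replicate 2 or Day3 replicate 3). With the copy index held these were -0.54 (adjusted p = 0.103) and 0.40 (0.321).

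**Figure D2:**
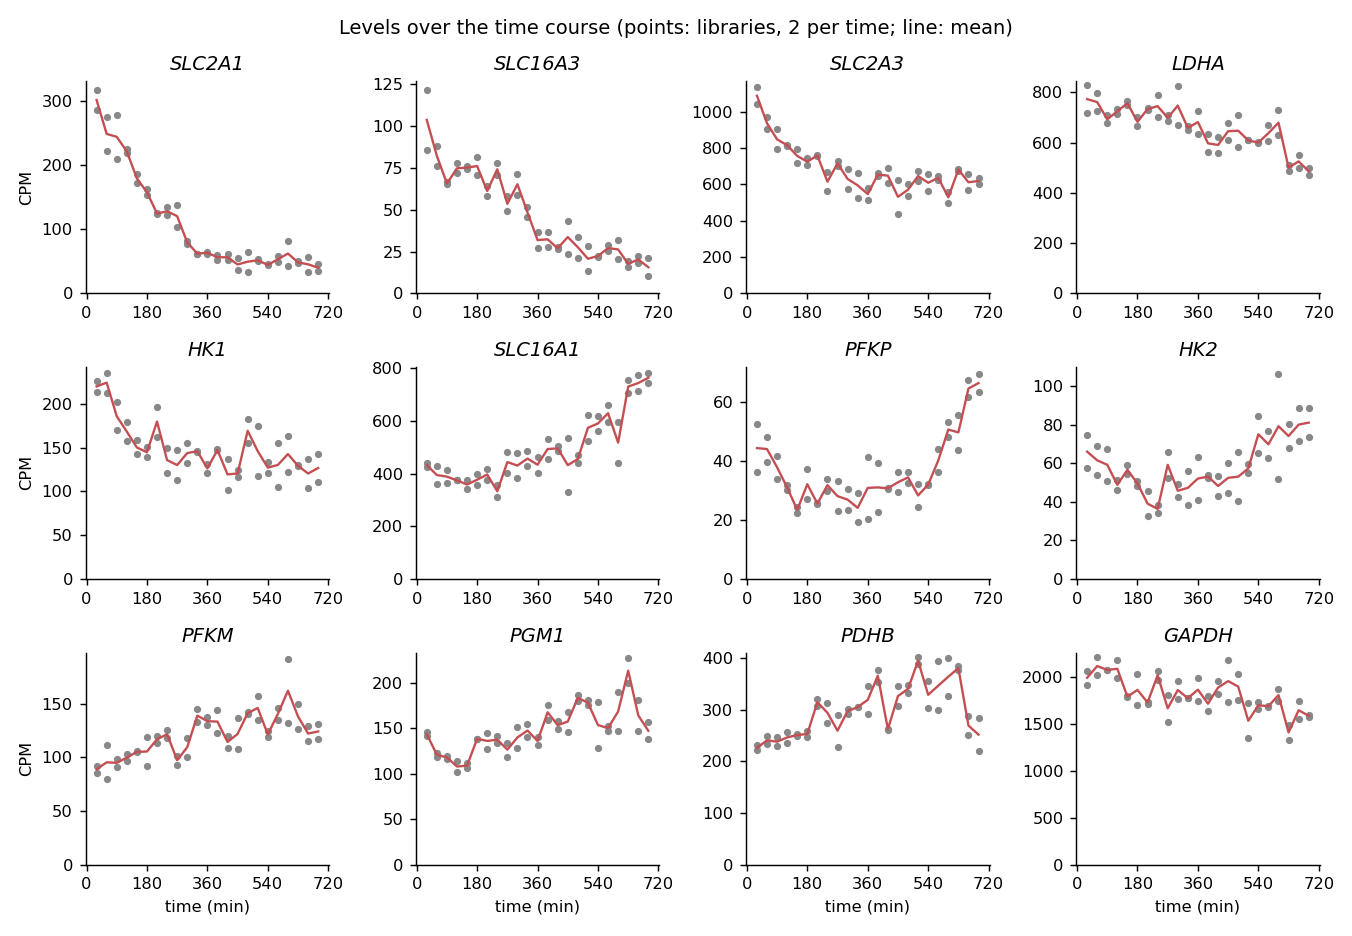
Levels in CPM (y axis) of 12 members over the PSM time course in minutes (x axis); points are libraries, 2 at each time, and lines join the means. SLC2A1 and SLC16A3 decline from 302 and 104 CPM at 30 min to 40.1 and 15.6 CPM at 690 min, while SLC16A1, PFKP and HK2 are highest at 690 min.

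The 2 carriers that fell most in the course and LDHA, which fell with them, are shown by the 250 bases before a transcription start, because hypoxia-inducible factors, known activators of all 3 genes, recognise a core of ACGTG or GCGTG. Sequences are from RefSeq on GRCh38.p14, 5′ to 3′ on the strand of the gene, with matches to ACGTG or GCGTG on either strand in capitals; CACGTG, the E-box bound by MYC, holds ACGTG on both strands. Where a gene has several starts, the one with the most matches is shown. SLC2A1 lies at chr1:42958869-42959118 on the minus strand and has no match, SLC16A3 at chr17:82234649-82234898 on the plus strand has 3 matches to GCGTG, and LDHA at chr11:18394313-18394562 on the plus strand has 5 matches to ACGTG at 3 places.
SLC2A1: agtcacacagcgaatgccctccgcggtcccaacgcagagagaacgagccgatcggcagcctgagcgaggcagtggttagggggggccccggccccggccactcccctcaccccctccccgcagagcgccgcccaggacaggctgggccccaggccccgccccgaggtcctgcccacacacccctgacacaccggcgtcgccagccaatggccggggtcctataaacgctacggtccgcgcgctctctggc
SLC16A3: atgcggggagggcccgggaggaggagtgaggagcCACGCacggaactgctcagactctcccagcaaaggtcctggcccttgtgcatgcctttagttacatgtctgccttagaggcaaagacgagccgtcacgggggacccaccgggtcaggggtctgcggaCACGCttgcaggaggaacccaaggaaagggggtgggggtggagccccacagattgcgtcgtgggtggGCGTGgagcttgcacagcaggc
LDHA: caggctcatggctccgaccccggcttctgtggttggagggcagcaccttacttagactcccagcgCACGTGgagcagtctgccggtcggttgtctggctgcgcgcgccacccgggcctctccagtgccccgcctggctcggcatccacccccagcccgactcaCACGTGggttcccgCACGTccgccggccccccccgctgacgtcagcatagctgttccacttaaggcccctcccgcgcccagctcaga
Over all 35116 starts in the table, 43.2% hold 1 of the motifs and 18.5% hold ACGTG in this window; over the 67 starts of members the shares were 53.7% and 34.3%. Of the 35 members with an entry, 28 had a match at 1 start or more. A gene with several starts has more chances of a match, and the share over all genes was not computed. The 28 therefore cannot be set against the shares per start. A match is a description of the letters only.

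Hexokinases trap glucose in the cell as glucose 6-phosphate; HK1 is the housekeeping form and HK2 the inducible one. Both fell over the protocol. HK1 measured 241, 392 and 356 CPM at Day0, 171, 186 and 171 at Day1, 104, 172 and 175 at Day2, and 86.5, 88.9 and 148 at Day3. HK2 measured 211, 139.8 and 198 CPM, then 115, 107 and 103, then 53.0, 66.8 and 83.2, then 70.5, 58.3 and 71.4. Day0 libraries were above all others for both genes. From Day0 to Day3, HK1 fell 3.05-fold (log2 -1.61, SE 0.24, edgeR adjusted p = 0.000151) and HK2 fell 2.74-fold (log2 -1.45, SE 0.20, adjusted p = 6.08e-05).

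The single steps of the hexokinases were less firm than the whole fall. From Day0 to Day1, HK1 changed by -0.90 (edgeR adjusted p = 0.0269) and HK2 by -0.75 (0.0253) on the log2 scale. Leaving out Day0 replicate 2 or 3 or any Day1 library moved HK1 to an adjusted p of 0.0757 to 0.13. For HK2, leaving out Day0 replicate 1 or 3 or any Day1 library gave 0.0678 to 0.104. With the copy index held, the change was -0.61 (0.137) for HK1 and -0.67 (0.0922) for HK2. From Day1 to Day2, HK2 changed by -0.68 (0.025), with 0.065 to 0.104 without Day1 replicate 1 or 2 or Day2 replicate 1 or 2 and -0.58 (0.148) with the copy index held. Summed over both genes, hexokinase TPM was 285 ± 50, 143 ± 3.82, 101 ± 28.1 and 94.4 ± 29.5 (SD, n = 3).

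The hexokinases separated in the course. HK1 had 169.8, 213 and 235 CPM (lowest, median, highest) at 30 to 90 min and 121, 146 and 148 at 330 to 390 min, 1.5-fold lower with no overlap (log2 -0.58, SE 0.11, edgeR adjusted p = 6.82e-05). HK2 had 51.0, 62.5 and 74.4 CPM, then 38.6, 53.1 and 63.3, then 68, 76.8 and 88.7. Its last window did not overlap with the middle one and was 1.54-fold higher (log2 0.63, SE 0.15, adjusted p = 0.00287). HK2 accordingly took 13.1% of hexokinase TPM in the first window, 15.6% in the second and 24.2% in the third. GPI, the isomerase of the next step, was 1.56-fold lower at Day3 than at Day2 (log2 -0.64, adjusted p = 0.0118; log2 -0.40 and 0.262 with the copy index held, and 0.101 on log2(TPM + 1)). In the course GPI fell along the linear trend (log2 -0.48 from 30 to 690 min, SE 0.07, adjusted p = 8.06e-08).

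Phosphofructokinase, the committing step of glycolysis, is built from liver-type PFKL, muscle-type PFKM and platelet-type PFKP subunits. PFKP had the widest called change between successive days of all members. It measured 78.1, 106 and 117 CPM at Day0, 49.1, 55.9 and 50.3 at Day1, 20, 17.3 and 9.31 at Day2, and 153, 83.8 and 117 at Day3. Day2 libraries were lowest and overlapped with no other day. PFKP fell 3.34-fold from Day1 to Day2 (log2 -1.74, SE 0.28, edgeR adjusted p = 0.000702) and rose 7.62-fold from Day2 to Day3 (log2 2.93, SE 0.29, adjusted p = 7.1e-06); with the copy index held these were -1.78 and 2.98. From Day0 to Day1 it changed by -0.96 (adjusted p = 0.0312), which leaving out Day0 replicate 2 or 3 or any Day1 library took to 0.0801 to 0.132; with the copy index held it was -0.98 (0.0697).

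PFKM rose from Day1 to Day2, the step in which PFKP fell most. It measured 81.5, 97.5 and 107 CPM at Day0, 79.6, 49.4 and 55 at Day1, 145, 105 and 113 at Day2, and 168, 127 and 143 at Day3. Day1 libraries lay below those of Day2, and the 1.98-fold rise between them was called (log2 0.98, SE 0.21, edgeR adjusted p = 0.00423). The rise from Day0 to Day3 (log2 0.61, adjusted p = 0.0402) was lost without any Day0 library, Day1 replicate 3, or Day3 replicate 1 or 3 (0.0504 to 0.16), and was 0.59 (0.0547) with the copy index held. PFKL was called in no comparison, with day means of 83.4 to 115 CPM. Per length, PFKP made up 37.9% ± 6.13 of phosphofructokinase TPM at Day0, 29.1% ± 2.66 at Day1, 7.89% ± 2.41 at Day2 and 34.0% ± 3.64 at Day3, and PFKM made up 29.5%, 28.1%, 51.3% and 35.3%.

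The same pair moved in the course. PFKP had 33.9, 40.7 and 52.5 CPM (lowest, median, highest) in the first window, 19.2, 25.9 and 41.3 in the second, and 43.8, 62.4 and 69.3 in the third. The last window lay above the middle one, 2.08-fold higher (log2 1.06, SE 0.16, edgeR adjusted p = 1.8e-06). The earlier fall (log2 -0.56, adjusted p = 0.0093) came with overlapping windows, and it was lost (0.0541 to 0.0729) without 30 min replicate 2, 330 min replicate 1, 360 min replicate 2 or 390 min replicate 1. PFKM had 79.6, 92.0 and 111 CPM, then 123, 135 and 145, then 115, 128 and 149.7, and rose 1.46-fold from the first to the middle window (log2 0.54, SE 0.10, adjusted p = 5.04e-05) with no overlap. Summed CPM of 8 skeletal muscle markers went from 162 to 285 in the first window to 458 to 645 in the second, where MYOD1, MYOG and MYF5 were at 0 in all 6 libraries; 4 of the 8 could be tested, and TNNT1 alone was called higher. The part of such cells in the PFKM values was not tested.

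The PFKFB enzymes make and break fructose 2,6-bisphosphate; PFKFB3 and PFKFB4 are the hypoxia-inducible forms. PFKFB4 measured 31.9, 11.1 and 19.6 CPM at Day0, 12.8, 12.4 and 6.85 at Day1, 7.62, 2.83 and 5.71 at Day2, and 14.9, 22.6 and 16.1 at Day3. Day3 libraries were all above Day2 libraries, and the 3.29-fold rise (log2 1.72, SE 0.48, edgeR adjusted p = 0.0172) was at 0.0507 to 0.0646 without Day2 replicate 2 or Day3 replicate 2. With the copy index held the log2 change was 1.80, no smaller, at an adjusted p of 0.111. In the course PFKFB4 was 1.58-fold lower in the last window (log2 -0.66, adjusted p = 0.0365), a call that 9 single libraries each ended (0.0537 to 0.171: 330 min replicates 1 and 2, 360 min replicate 1, 390 min replicate 2, both at 630 min, both at 660 min, 690 min replicate 1); with the copy index held it was -0.61 (0.0536). PFKFB3 rose along the trend (log2 0.46 from 30 to 690 min, SE 0.13, adjusted p = 0.00393) and was called in no comparison of days.

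PFKFB1, the liver form, was low. It measured at most 6.71 CPM in a daily library, at Day2, and its highest time mean in the course was 6.27 CPM at 150 min, where its libraries held 8.31 and 4.23 CPM and the copy index peaked. It had 0, 2.15 and 4.44 CPM (lowest, median, highest) in the first window, 0, 0.103 and 1.65 in the second, and 0.34, 0.755 and 1.11 in the third. The windows overlapped, and its called trend (log2 -2.12, SE 0.77, edgeR adjusted p = 0.0264) was at 0.0629 without 150 min replicate 1, and at 0.455 (log2 -0.87) with the copy index held. PFKFB2 was called nowhere, with day means of 16.4 to 25.6 CPM.

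Most steps from aldolase onwards were carried by 1 abundant gene each. By TPM, ALDOA gave 91.7% to 96.7% of aldolase on every day, PGAM1 gave 95.2% to 98.8% of phosphoglycerate mutase, and PKM2 gave 99.6% to 99.8% of pyruvate kinase. ALDOA was 1.61-fold lower at Day3 than at Day2 (log2 -0.68, edgeR adjusted p = 0.0112; log2 -0.32 and 0.377 with the copy index held, and 0.0627 on log2(TPM + 1)). ALDOC, the brain-type aldolase, measured 38.4, 24.0 and 28.8 CPM at Day0, 30.3, 33.8 and 20 at Day1, 24.8, 24.7 and 23.7 at Day2, and 15.5, 16.3 and 7.37 at Day3. All Day3 libraries were below those of the other days, 2.35-fold below Day0 (log2 -1.23, SE 0.33, adjusted p = 0.014; 0.0537 to 0.0677 without Day0 replicate 1 or Day3 replicate 3).

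GAPDH, whose product oxidises glyceraldehyde 3-phosphate and which often serves as a reference gene, had the highest adjusted p of the members for any difference among days (edgeR, 0.784), at 1755 ± 31.3, 1855 ± 76.1, 1850.4 ± 90.3 and 1740.0 ± 90.9 CPM (SD, n = 3). In the course it drifted down, from 1915, 2065 and 2211 CPM (lowest, median, highest) in the first window to 1323, 1559.8 and 1736 in the last. These windows did not overlap, and the trend was log2 -0.34 from 30 to 690 min (SE 0.07, adjusted p = 0.000147). Its fall from the first to the middle window alone (log2 -0.21, adjusted p = 0.0439) was lost without any one of 21 of the 46 libraries, at 0.0501 to 0.149. TPI1, the triose isomerase, was called nowhere, with 445 ± 66.9 CPM at Day2 and 669.8 ± 97.3 at Day0. PGAM1 was 1.48-fold lower at Day3 than at Day0 (log2 -0.56, SE 0.12, adjusted p = 0.00334), and fell along the course (trend log2 -0.39, adjusted p = 2.69e-05). PGAM2, the muscle mutase, had at most 10.5 CPM in a daily library, and its highest time mean in the course was 8.25 CPM, at 150 min.

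PGK1 makes the first ATP of glycolysis, and ENO3 is the muscle-type enolase. PGK1 measured 1484, 798 and 1081 CPM at Day0, 1354, 1047 and 1223 at Day1, 2477, 2297 and 1801 at Day2, and 1239, 1246 and 570.0 at Day3. ENO3 measured 33.1, 41.8 and 43.9 CPM, then 92.4, 46.4 and 81.8, then 266, 212 and 173, then 107, 109 and 34.2. Day2 libraries were highest for both genes and overlapped with no other day, and Day3 replicate 3 was the lowest of its day for both, as it was for the copy index at -2.29. PGK1 rose 1.81-fold to Day2 (log2 0.86, SE 0.26, edgeR adjusted p = 0.0263) and fell 2.15-fold to Day3 (log2 -1.11, SE 0.26, adjusted p = 0.00621). ENO3 rose 2.96-fold to Day2 (log2 1.56, SE 0.35, adjusted p = 0.00539) and fell 2.62-fold to Day3 (log2 -1.39, SE 0.34, adjusted p = 0.00911).

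With the copy index held, none of these 4 changes was called. PGK1 then changed by 0.29 (edgeR adjusted p = 0.413) and -0.44 (0.309), and ENO3 by 0.71 (0.06) and -0.38 (0.452). Without Day1 replicate 2 or 3 or Day2 replicate 1 or 2, the rise of PGK1 was at 0.0616 to 0.113. ENO3 was also 2.09-fold higher at Day3 than at Day0 (adjusted p = 0.036), and this was lost without any Day0 library or Day3 replicate 1 or 2 (0.0713 to 0.154) and with the replicate number as a block (0.0501); with the copy index held it was log2 0.48 (0.0863). Summed CPM of the 8 skeletal muscle markers was 157 to 239 at Day2 and 82.2 to 112 at Day1, with MYOD1, MYOG and MYF5 at 0 in all Day2 libraries; 2 of the 4 testable ones (TNNT1, DES) rose. The part of such cells in the ENO3 values was not tested.

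In the course the same genes traced the copy index. ENO3 rose from a mean of 18.4 CPM at 30 min to 99.2 at 150 min and stood at 27.3 at 300 min; PGK1 went from 716 to 1466 and 747 CPM at these times. Against the mean of its time in each library, PGK1 and ENO3 had a correlation of 0.70 with each other. PKLR, the liver and red cell pyruvate kinase, had its highest mean at 150 min too, at 10.6 CPM. Over the days PKLR had 3.95 ± 0.992, 6.83 ± 2.07, 18.5 ± 9.78 and 4.93 ± 4.36 CPM (SD, n = 3), and its call for any difference (adjusted p = 0.0389) was lost without any of 9 of the 12 libraries (0.0516 to 0.186). That call was also lost with the copy index held (edgeR adjusted p = 0.42) and on log2(TPM + 1) values (limma adjusted p = 0.0757). PGK1 fell along the trend (log2 -0.58, adjusted p = 0.00136), which the fit with the index held did not call (0.149). No trend of ENO3 was called (log2 -0.67, edgeR adjusted p = 0.13), and with the index held its sign turned (log2 0.55, adjusted p = 0.00466).

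**Figure D3:**
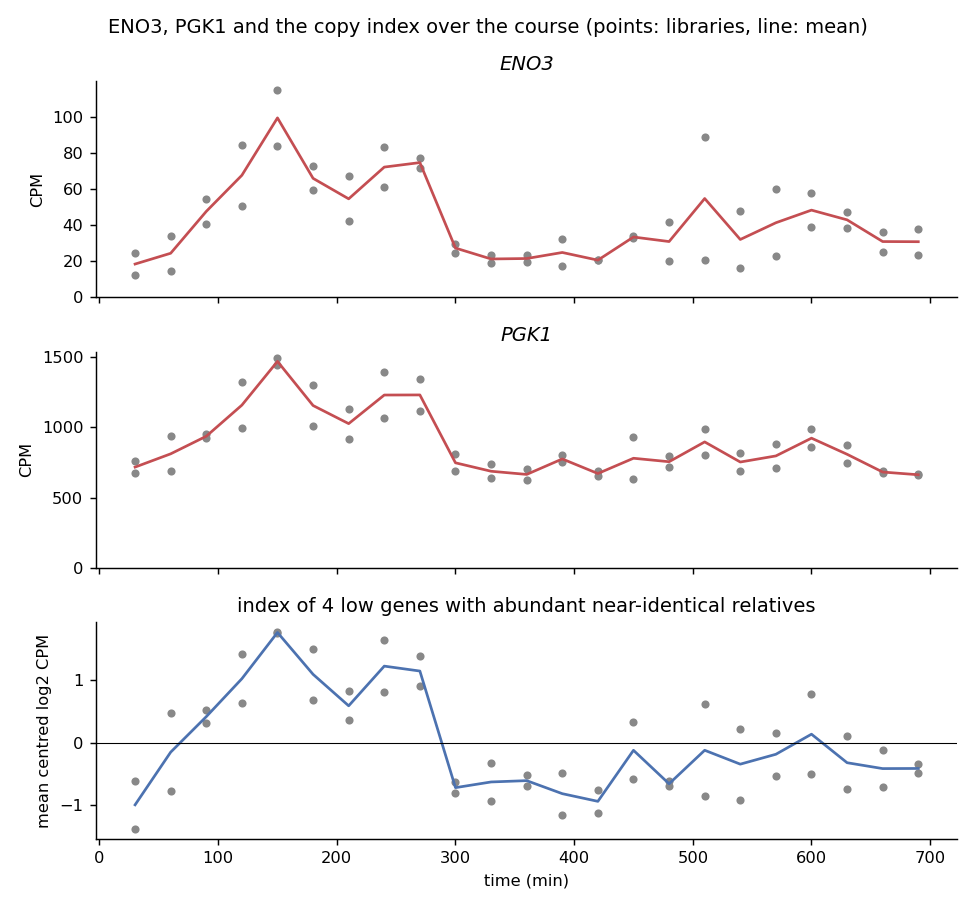
Levels in CPM of ENO3 and PGK1 and the copy index in log2 CPM (y axes) against time in the PSM course in minutes (x axis); points are libraries and lines join means. All 3 rise to a peak at 150 min and drop between 270 and 300 min.

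ENO1 is the enolase of most tissues and carried 82.1% to 96.3% of enolase TPM on the 4 days. It had 2563 ± 205, 3128 ± 353, 1741 ± 115 and 1485 ± 265 CPM (SD, n = 3), and fell 1.80-fold from Day1 to Day2 (log2 -0.84, SE 0.14, edgeR adjusted p = 0.000707), also with the copy index held (log2 -0.65, adjusted p = 0.00422). In the last window of the course it was 1.29-fold lower than in the middle one (log2 -0.37, adjusted p = 0.000881). ENO2, the neuronal enolase, measured 41.1, 42.5 and 40.5 CPM at Day0, 34.0, 21.3 and 24.5 at Day1, 24.8, 39.9 and 31.2 at Day2, and 15.1, 23.8 and 23.8 at Day3. Day0 libraries were all above the others, and Day3 was 1.98-fold lower (log2 -0.98, adjusted p = 0.0168; 0.0558 to 0.0835 without Day0 replicate 2 or Day3 replicate 1). The summed neuron markers, given above, were higher at Day2 than at Day1; their part in the ENO2 values was not tested.

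ENO2 also declined in the course. Its windows held 12.6, 18.5 and 22.1 CPM (lowest, median, highest), then 17.9, 20.9 and 28.2, then 10.5, 14.5 and 19.1. Neighbouring windows overlapped, the trend was log2 -0.64 (SE 0.20, edgeR adjusted p = 0.00824), and the fall from the middle to the last window (log2 -0.59, adjusted p = 0.0352) was lost without any of 8 libraries (0.0515 to 0.159: 330 min replicate 1, both at 360 min, 390 min replicate 2, 630 min replicate 2, 660 min replicate 1, both at 690 min).

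PKM2 stands for the muscle-type pyruvate kinase, which makes the second ATP of glycolysis; gene counts do not tell its splice forms M1 and M2 apart. It had 1979.6 ± 409, 2312 ± 185, 4144 ± 326 and 2432 ± 209.6 CPM (SD, n = 3). Every Day2 library, at 4495, 3851 and 4087 CPM, was above every other daily library. The rise to Day2 was 1.79-fold (log2 0.84, SE 0.14, edgeR adjusted p = 0.000802) and the fall to Day3 was 1.70-fold (log2 -0.77, SE 0.14, adjusted p = 0.00139). With the copy index held they were 0.72 (adjusted p = 0.00566) and -0.60 (0.0392). In the course PKM2 was 1.29-fold lower in the last window than in the middle one (log2 -0.37, adjusted p = 0.00386). Over the 23 time means, the genes most like PKM2 among 6697 genes at a mean of 20 CPM or more were TCEAL2 (Pearson r 0.90), CALR (0.88), SRSF5 (0.87), NASP (0.87) and TRIM41 (0.86).

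LDHA and LDHB encode the M and H subunits of lactate dehydrogenase, of which the M subunit favours lactate formation. LDHA measured 1532, 619 and 854 CPM at Day0, 1054, 1024 and 960.5 at Day1, 901, 764 and 811 at Day2, and 586, 492 and 434 at Day3. Day3 libraries were below all others, 1.99-fold below Day0 (log2 -0.99, SE 0.23, edgeR adjusted p = 0.00556). Day0 replicate 1 stood apart from its day, and was also the highest Day0 library for SLC16A3, PFKFB3, PFKFB4 and PGK1; the 15 hypoxia targets outside glycolysis summed to 662, 566 and 833 CPM in the 3 Day0 libraries, highest in replicate 3. The step from Day2 to Day3 (log2 -0.71, adjusted p = 0.0366) was at 0.077 to 0.121 without Day2 replicate 1 or Day3 replicate 2 or 3, 0.153 on log2(TPM + 1) and 0.343 (log2 -0.57) with the copy index held.

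LDHB was the main subunit by TPM, at 71.7% to 80.7% of the step on the 4 days. It had 2253 ± 226, 1749 ± 239.8, 1266 ± 239 and 1303 ± 348 CPM (SD, n = 3) and was 1.73-fold lower at Day3 than at Day0 (log2 -0.79, SE 0.18, edgeR adjusted p = 0.00451). In the course LDHA went from 676, 722 and 827 CPM (lowest, median, highest) in the first window to 472, 498 and 552 in the last, with no overlap and a trend of log2 -0.51 (SE 0.07, adjusted p = 5.72e-08). LDHB was called lower between the middle and last windows (log2 -0.27, adjusted p = 0.0286), a call that 8 libraries each ended (0.05 to 0.143: 330 min replicate 1, both at 360 min, both at 390 min, 630 min replicate 2, 660 min replicate 2, 690 min replicate 1). LDHC, the testis form, had at most 3.3 CPM in a daily library. The genes most like LDHA over the 23 time means were SLC16A3 (r 0.89), YARS (0.89), CYB5A (0.87), RHOC (0.86) and ASNS (0.86), and those most like HK2 were RGMB (0.88), TIAM1 (0.86), OGT (0.82), DDHD1 (0.82) and NUDT11 (0.80).

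Pyruvate dehydrogenase joins glycolysis to the citric acid cycle; PDHA1 and PDHB form its E1 enzyme, DLAT is E2, DLD is E3 and PDHX binds E3 to the core. PDHB measured 212, 238 and 254 CPM at Day0, 362, 442 and 350.1 at Day1, 167, 197 and 178 at Day2, and 230.2, 224 and 271 at Day3. Day1 libraries were above all others. PDHB rose 1.64-fold to Day1 (log2 0.71, SE 0.15, edgeR adjusted p = 0.00602) and fell 2.13-fold to Day2 (log2 -1.09, SE 0.15, adjusted p = 0.000182), with 0.82 and -0.95 when the copy index was held. Its partner subunit PDHA1 was called nowhere, at 214 to 279 CPM as day means.

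DLAT also had its highest mean at Day1, after 92.6 CPM at Day0, and fell with PDHB to Day2, a step in which DLD rose. DLAT fell from 119.7 ± 15.9 to 72.6 ± 13.2 CPM between Day1 and Day2 (log2 -0.72, edgeR adjusted p = 0.0391; 0.0996 to 0.14 without Day1 replicate 1 or 2 or Day2 replicate 2 or 3). DLD, also a subunit of other dehydrogenase complexes, rose from 314 ± 23.2 to 456 ± 30.3 CPM in that step (log2 0.54, adjusted p = 0.00957; 0.0571 without Day1 replicate 2) and fell to 322 ± 19.3 at Day3 (log2 -0.50, adjusted p = 0.0122; 0.167 on log2(TPM + 1)). With the copy index held, DLD changed by log2 0.43 (0.0535) and -0.36 (0.181), and DLAT by -0.59 (0.227). In the course PDHB rose 1.40-fold from the first to the middle window (log2 0.49, SE 0.08, adjusted p = 1.75e-05), from 221, 232 and 248 CPM (lowest, median, highest) to 291, 326 and 377 with no overlap. PDHX rose along the trend (log2 0.33, SE 0.10, adjusted p = 0.0109).

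PGM1 links glucose 6-phosphate to glycogen through glucose 1-phosphate, and PGD, TKT and TALDO1 belong to the pentose phosphate pathway. PGM1 rose through the protocol: 61.0, 34.1 and 47.9 CPM at Day0, 78.9, 94.0 and 86.9 at Day1, 91.4, 100.3 and 81.1 at Day2, and 129, 111 and 130.5 at Day3. Day0 libraries were lowest and Day3 libraries highest, with no overlap with other days, and Day3 was 2.58-fold above Day0 (log2 1.37, SE 0.20, edgeR adjusted p = 0.000135). Its first step (log2 0.86, adjusted p = 0.0141) was at 0.0543 to 0.0826 without Day0 replicate 2 or 3 or Day1 replicate 2. In the course PGM1 had 117, 121 and 146 CPM (lowest, median, highest), then 131, 148 and 176, then 138, 169 and 227, and its trend was log2 0.58 (SE 0.09, adjusted p = 1.1e-06) with overlap between windows.

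TKT was 1.41-fold lower at Day3 than at Day0 (log2 -0.49, edgeR adjusted p = 0.0122; 0.05 to 0.0699 without Day0 replicate 2 or Day3 replicate 1). PGD rose from 309 ± 74.2 CPM at Day2 to 484 ± 125 at Day3 (SD, n = 3; log2 0.65, adjusted p = 0.0265). That rise was at 0.0529 to 0.137 without Day2 replicate 1 or 2 or Day3 replicate 3 and at 0.724 (log2 0.15) with the copy index held. TALDO1 was called only in the tests for any difference, among days (adjusted p = 0.0211; 0.0557 and 0.0959 without Day2 replicate 1 and Day0 replicate 1) and among times (0.0101). Its call among days was lost with the copy index held (edgeR adjusted p = 0.429), and its call among times on log2(TPM + 1) values (limma adjusted p = 0.065). Its day means were 148, 104, 86.1 and 116 CPM.

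**Figure D4:**
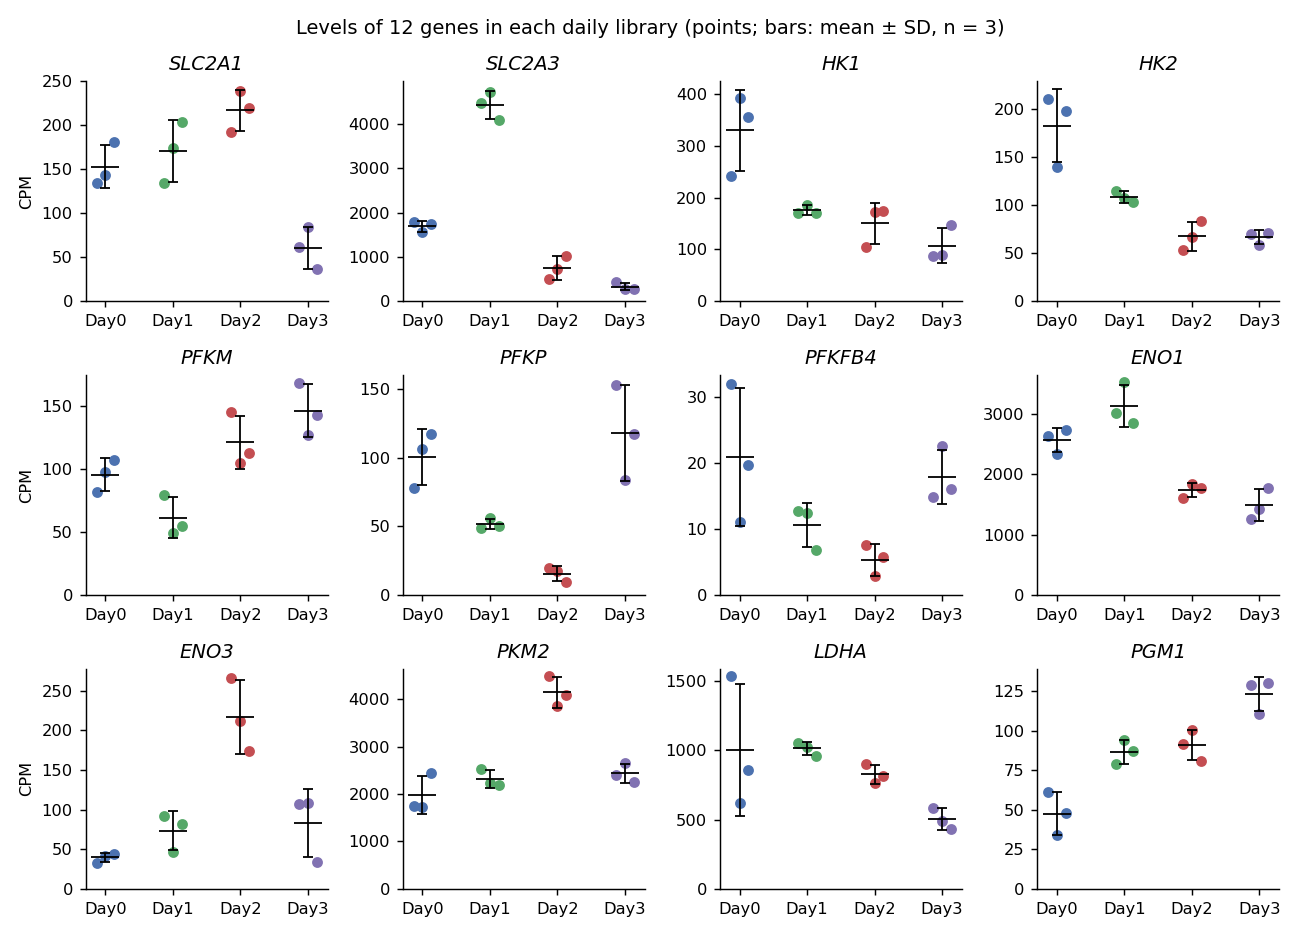
Levels in CPM (y axis) of 12 members in each daily library (x axis, Day0 to Day3); points are libraries, and bars give the mean and SD of 3. SLC2A3 peaks at Day1, PFKP is lowest at Day2, ENO3 and PKM2 are highest at Day2, and PGM1 is highest at Day3.

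Over the course as a whole, any difference among times was called for 24 of 38 members, against 28.9% of 13653 genes. With the copy index held, the call was lost for DLD, ENO3, PGD, PGK1 and PKLR (edgeR adjusted p = 0.0964 to 0.475). On log2(TPM + 1) values it was lost for DLD, HK2, PKM2 and TALDO1 (limma adjusted p = 0.0512 to 0.119). From 30 to 90 min to 330 to 390 min, 2 members rose (PFKM, PDHB) and 9 fell, against 9.94% and 8.03% of all genes. From 330 to 390 min to 630 to 690 min, 3 rose (HK2, PFKP, SLC16A1) and 8 fell, against 5.01% and 6.06%; this count of 11 was 7 without 330 min replicate 1, 360 min replicate 1, 630 min replicate 2 or 690 min replicate 1. On log2(TPM + 1) values the splits were 4 higher and 8 lower in the first of these steps and 3 and 5 in the second. Along the linear trend 8 rose and 13 fell, against 16.1% and 17.5%, and the members' median trend was -0.18 beside -0.02 over all genes. Of the 37 members tested in both series, 22 (59.5%) were called both among days and among times, 5 among days alone (PFKFB4, ALDOC, PGAM1, DLAT, TKT) and 2 among times alone (GAPDH, SLC16A3). Of the 12549 genes tested in both, 21.1% were called in both, 22.5% among days alone and 9.61% among times alone, and a call on 1 side only does not show that the courses differ.

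The course was sampled to follow the segmentation clock, the oscillation of HES7 and its partners. A rhythm with a period of 300 min, a setting chosen here, was called for 0 members by edgeR, against 0.132% of all genes; 8 members had an unadjusted p under 0.05, and DESeq2 called 3. The smallest adjusted p values were those of ENO3 (0.058), PGK1 (0.0612) and PKLR (0.0673), each with its highest time mean at 150 min, the peak of the copy index, as had GPI, PFKFB1 and PGAM2. The count was 1 to 3 when any of 12 single libraries was left out: 30 min replicate 2, 120 min replicate 2, 210 min replicate 1, 270 min replicate 2, 450 min replicate 1, either at 480 min, 510 min replicate 2, 540 min replicate 2, 570 min replicate 1, 600 min replicate 2 or 630 min replicate 1.

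Genes around the members were described by 7 lists, with values from the fit without the copy index and no alternative given. Their counts stand beside 9.97% of all tested genes called higher and 11.5% called lower from Day0 to Day3. Along the linear trend of the course these shares were 16.1% and 17.5%. Of other transporters and isoenzymes of the same steps, 1 rose and 1 fell of 15 tested from Day0 to Day3 (median log2 change 0.19, beside 0.04 over all genes), and 0 rose and 5 fell of 16 along the course (median trend -0.69, beside -0.02). BSG, the chaperone that brings lactate carriers to the membrane, fell from 204 ± 13.8 CPM at Day1 to 76.8 ± 6.93 at Day2 (log2 -1.41, edgeR adjusted p = 0.000276) and rose to 223 ± 72.9 at Day3 (log2 1.54, adjusted p = 0.000117), and SLC2A6, a relative of the glucose carriers, fell along the course (log2 -1.71, adjusted p = 8.92e-08).

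Of 12 tested genes of pyruvate entry and its control, 2 rose and 1 fell from Day0 to Day3 (median 0.16), and 1 rose and 1 fell along the course (median 0.00). PDK1, the kinase that switches pyruvate dehydrogenase off, had 61.3 ± 4.17 CPM at Day0, 81.6 ± 10.2 at Day1, 33.9 ± 12.6 at Day2 and 15.9 ± 3.55 at Day3 (SD, n = 3). It fell from Day1 to Day2 (log2 -1.27, SE 0.26, edgeR adjusted p = 0.00352), from Day2 to Day3 (log2 -1.09, SE 0.27, adjusted p = 0.00919), and along the course (log2 -2.33, SE 0.18, adjusted p = 1.44e-16), where SLC2A1 and SLC16A3 fell too. PC, which carboxylates pyruvate to oxaloacetate, fell from 12.8 ± 0.757 CPM at Day0 to 4.83 ± 0.311 at Day1 (log2 -1.40, adjusted p = 0.0376) and was highest at Day3 (28.0 ± 5.48 CPM).

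Gluconeogenic and malic enzymes gave 0 higher and 1 lower of 8 from Day0 to Day3 (median -0.45) and 0 and 1 of 7 along the course (median -0.16); ME1, a source of NADPH, rose from 12.2 ± 4.02 to 52.1 ± 17.2 CPM between Day0 and Day1 (log2 2.10, edgeR adjusted p = 0.00259). The pentose phosphate and sugar phosphate branches gave 3 higher and 5 lower of 17 (median 0.13) and 0 and 2 of 18 (median -0.03). UGP2, which makes UDP-glucose for glycogen, fell from 594 ± 20.3 CPM at Day1 to 129 ± 30.7 at Day2 (log2 -2.20, adjusted p = 7.04e-06), a step where PGM1, the enzyme before it, was not called. In the citric acid cycle 2 rose and 2 fell of 20 (median 0.11), and 0 and 8 along the course (median -0.24). From Day1 to Day2, 7 of the 20 were higher and 2 lower, against 8.67% and 11.5% of all genes. From Day2 to Day3, 1 was higher and 5 were lower, against 11.6% and 11%. IDH1, the cytosolic isocitrate dehydrogenase, went from 930 ± 172 CPM at Day1 to 474 ± 41.1 at Day2 (log2 -0.97, adjusted p = 0.00043), and the mitochondrial IDH2 from 103 ± 16 to 223 ± 39.3 (log2 1.12, adjusted p = 0.000746).

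Summed over all 38 members, the genes took 2.14% of TPM at Day0, 2.13% at Day1, 1.68% at Day2 and 1.65% at Day3. The 10 reactions from hexokinase to pyruvate kinase took 1.22%, 1.20%, 1.19% and 1.08%. In the 3 windows of the course the whole set took 1.97%, 1.92% and 1.70%, and the 10 reactions took 1.23%, 1.19% and 1.03%.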

How the data were processed

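RNA of the 58 libraries was prepared with the LM-seq protocol, per the labels. The authors deposited a table of expected counts per gene and a table of TPM. The submitters' processing notes name Bowtie 0.12.2 as a tool and list hg19 beside mm8 as builds. What mm8 was for, the annotation and the counter were not given in the sources used here. After rounding to whole numbers, the deposited expected counts entered a fit over all genes with edgeR 4.0.16 in R 4.3.3 (TMM scaling, filterByExpr, quasi-likelihood F tests, Benjamini-Hochberg adjustment). One fit held the 12 daily libraries and another the 46 course libraries, and a gene was called at an adjusted p under 0.05. CPM values use TMM-scaled totals; the deposited TPM served for shares within a step. Course windows are 30 to 90, 330 to 390 and 630 to 690 min (6 libraries each), and trends are scaled to the change from 30 to 690 min.

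Genes were chosen by symbol, and the members, the 7 pathway lists and the 8 marker lists were chosen with earlier results of these data known. Values in every daily library are given for members called between days with a change of at least 1 log2 unit. For the 5 called members of widest trend in each direction, the lowest, median and highest level of each course window are given. A pathway list names at most the 3 called genes of smallest adjusted p in a comparison. Alternatives were DESeq2 1.42.0, its size factors in edgeR, no filter on low counts, limma 3.58.1 on log2(TPM + 1) and log2(TPM + 0.1), a replicate block, only the 2 days compared, periods of 270 and 330 min, a limit of 1 log2 unit, and each library left out; the copy index as a covariate was chosen after seeing the data. The edgeR steps were tested on simulated counts. Replicates of a group had correlations of log2 CPM of 0.909 to 0.973 (days) and 0.931 to 0.981 (course), and none differed by so little that they could be 1 library. Promoter sequences were matched by symbol to RefSeq (GRCh38.p14) for 35 members.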

Additional observations from a re-analysis of the deposited data

How the results depend on the processing

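A limit of 1 log2 unit beside the adjusted p left 1, 4, 6 and 7 members for Day0 to Day1, Day1 to Day2, Day2 to Day3 and Day0 to Day3, and 2, 2 and 3 for the steps between course windows and the trend. With only the 2 days compared in the fit, 12 members were called from Day0 to Day1 and 8 from Day2 to Day3. Calls over all genes moved the same way. They split 1167 higher to 1144 lower from Day0 to Day1, beside 471 to 460 in the fit of all days. From Day2 to Day3 they split 779 to 588, beside 1483 to 1407. When the copy index was held as a covariate, the counts were 6 for Day1 to Day2, 6 for Day2 to Day3 and 17 for any change over the days, while the shares of all genes called went from 20.1% to 7.68%, from 22.6% to 4.95% and from 43.6% to 27.3%; the trend of ENO3 reversed to 0.55. The 300 min rhythm gave 3 members with DESeq2, 3 without the filter on low counts and 3 with a period of 330 min. Leaving out each library in turn gave counts of 2 to 8, 8 to 16, 11 to 14 and 10 to 14 for the 4 comparisons of days, 22 to 28 for any change over the days, 22 to 28 for any difference among times, 8 to 13 and 7 to 13 for the steps between windows, 21 to 23 for the trend and 0 to 3 for the rhythm. Fits that leave 1 library at a time point assume that it varies like the others. With the replicate number as a block the counts were 7, 14, 14 and 13 for the days, 26 and 23 for any difference among days and times, 11 and 11 for the windows, 21 for the trend and 0 for the rhythm; the block ended the calls of ENO3 from Day0 to Day3 (adjusted p = 0.0501), of ENO2 and PKLR over the days (0.0541, 0.0625) and of PKLR over the course (0.0525). Libraries with the same number deviated together by a mean correlation of 0.03 over 18 pairs of the days (range -0.13 to 0.19). Over 506 pairs of the course the mean was 0.00. No strong pairing by number was seen, but a mean of this kind cannot exclude a weak one. Over single members and all settings, 13238 values kept their side of the threshold, 266 passed it only under an alternative and 303 no longer passed. Most of these values come from leaving out single libraries, and a value that was not called either way counts as kept. The 303 can come only from called values, so the tally is not a measure of how firm the calls are. No value called in the edgeR fit without a covariate changed sign, and 1 that it did not call, the trend of ENO3, was called with the opposite sign when the copy index was held. Depth limits what can be said of PFKFB1, PGAM2, PKLR and LDHC, whose levels were near the limit of 3 counts in many libraries.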

Other observations

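Regulators of glycolysis genes are a list of 23 genes. It includes transcription factors, oxygen or energy sensors, TXNIP, and the RNA binders LIN28A and LIN28B. The list gave 1 higher and 3 lower of 21 tested from Day0 to Day3 (median log2 change -0.11, beside 0.04 over all genes). Along the course it gave 4 higher and 7 lower of 20 (median trend -0.18, beside -0.02). Among all genes, 9.97% were called higher and 11.5% lower from Day0 to Day3, and 16.1% and 17.5% along the trend. MYC, a known activator of many glycolysis genes, fell from 57.6 ± 10.5 CPM at Day1 to 4.24 ± 2.94 at Day2 (SD, n = 3; log2 -3.79, SE 0.41, edgeR adjusted p = 1.92e-05) and rose to 26.8 ± 6.23 at Day3 (log2 2.69, SE 0.40, adjusted p = 0.000325). MYCN, its relative, fell from 91.9 ± 32.1 to 21.8 ± 3.98 CPM between Day0 and Day1 (log2 -2.07, SE 0.28, adjusted p = 0.000167) and rose along the course (log2 1.82, SE 0.14, adjusted p = 2.01e-16). TXNIP, which lowers glucose uptake, was higher at Day3 (53.9 ± 6.83 CPM) than at Day0 (13.4 ± 5.09; log2 2.00, adjusted p = 8.97e-05). LIN28A is also on the stem cell marker list.

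Hypoxia targets outside glycolysis gave 1 higher and 2 lower of 14 from Day0 to Day3 (median -0.24), 5 higher and 2 lower from 30 to 90 min to 330 to 390 min, and 2 and 5 along the trend (median -0.18). Between these 2 windows 9.94% of all genes were called higher and 8.03% lower. ADM, the vasodilator adrenomedullin, fell from 153 ± 87.8 CPM at Day0 to 17.0 ± 2.21 at Day1 (SD, n = 3; log2 -3.16, edgeR adjusted p = 0.000951). DDIT4, an inhibitor of mTOR signalling, rose from 25.4 ± 5.85 to 101 ± 21.9 CPM between the first and middle windows of the course (SD, n = 6). Its log2 change was 1.98 (SE 0.13, edgeR adjusted p = 2.8e-17). With 5 genes called higher and 2 lower, this list moved in both directions in that interval.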
